A study of Homo sapiens with 8 samples.

Results

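The 4 inhibitor of DNA binding genes (ID1, ID2, ID3 and ID4) and 4 feedback genes of bone morphogenetic protein (BMP) signalling (SMAD6, SMAD7, SMAD9 and BAMBI) were followed in CHLA-20 and NGP, 2 cell lines from human neuroblastoma. These 8 genes were selected by name, on the strength of levels and changes already seen in the same libraries, so their values below describe them and test nothing. They are 8 of 58721 gene rows, and all 8 were among the 19395 genes with enough counts to be tested. The groups were CHLA-20 with DMSO, the vehicle, CHLA-20 with the inhibitor, NGP with DMSO and NGP with the inhibitor, with 2 libraries in each. The inhibitor blocks the arginine methyltransferase PRMT5. The sample names spell it JSK591, as is done below, and the treatment protocol spells it GSK591. It was given for 6 days at the IC50 dose, whose concentration is not stated. The medium was IMEM with added insulin, transferrin and selenite for CHLA-20 and RPMI1640 for NGP, both with serum, so a difference between the lines is also a difference between media. The labels do not say that replicates are separate cultures. The p-values below therefore measure the spread between these libraries, which may be technical.

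BMPs bind paired serine/threonine kinase receptors, which phosphorylate the receptor-regulated SMAD proteins SMAD1, SMAD5 and SMAD9. With SMAD4 these enter the nucleus and switch on target genes, of which the ID genes are the textbook case. ID proteins have a helix-loop-helix domain but no basic region for binding DNA. They pair with E proteins such as TCF3, TCF4 and TCF12 and keep them from pairing with tissue-specific basic helix-loop-helix (bHLH) factors, and in neural crest cells they are known for holding back differentiation. SMAD6 and SMAD7 are inhibitory SMADs that are themselves induced by the pathway, SMAD6 acting mainly on BMP signalling and SMAD7 on both BMP and TGF-beta signalling. BAMBI is a receptor-like membrane protein without a kinase domain that dampens signalling.

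The promoters of ID1 and ID4, which were lower with JSK591 in both lines, of SMAD7, whose change differed between the lines, and of SMAD6, which was called in neither line, are shown as the stretches of DNA next to these start sites. Each is the 250 bases before a transcription start in RefSeq (GRCh38.p14), printed 5′ to 3′ on the gene's strand. Capitals mark matches on either strand to GGCGCC or GGAGCC (GC-rich SMAD motifs), CAGAC (the SMAD-binding element), TATAAA and CCAAT.
ID1 (chr20:31605039-31605288, plus strand): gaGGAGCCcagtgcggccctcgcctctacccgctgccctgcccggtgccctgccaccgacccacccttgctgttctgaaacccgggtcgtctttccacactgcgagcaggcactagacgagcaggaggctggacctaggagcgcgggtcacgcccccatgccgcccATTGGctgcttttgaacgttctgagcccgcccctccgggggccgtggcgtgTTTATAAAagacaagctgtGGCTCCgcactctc
ID4 (chr6:19837120-19837369, plus strand): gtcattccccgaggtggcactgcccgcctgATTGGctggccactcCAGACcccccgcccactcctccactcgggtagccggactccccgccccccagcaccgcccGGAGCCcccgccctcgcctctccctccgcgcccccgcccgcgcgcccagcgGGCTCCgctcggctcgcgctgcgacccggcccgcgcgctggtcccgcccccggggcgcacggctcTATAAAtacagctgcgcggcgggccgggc
SMAD7 (chr18:48949334-48949583, minus strand, the second of its 3 listed starts): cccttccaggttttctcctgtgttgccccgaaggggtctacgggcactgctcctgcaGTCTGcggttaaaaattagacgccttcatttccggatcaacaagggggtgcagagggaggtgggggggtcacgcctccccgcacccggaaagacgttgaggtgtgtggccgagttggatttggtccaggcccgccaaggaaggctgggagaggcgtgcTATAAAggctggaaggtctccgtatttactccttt
SMAD6 (chr15:66701986-66702235, plus strand): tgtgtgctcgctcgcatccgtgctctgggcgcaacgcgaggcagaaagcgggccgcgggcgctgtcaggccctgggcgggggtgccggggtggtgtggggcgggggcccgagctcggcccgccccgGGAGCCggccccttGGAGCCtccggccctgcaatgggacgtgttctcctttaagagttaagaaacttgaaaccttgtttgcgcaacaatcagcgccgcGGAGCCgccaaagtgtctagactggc
The last 6 bases of the ID1 window and the last 8 of the SMAD6 window lie inside the first exon of the GENCODE 29 annotation. TATAAA began 31 bases before the start in ID1, where a match on the other strand overlaps it, 29 bases before it in ID4 and 35 bases before it in the SMAD7 window. The SMAD6 window held no TATAAA and no CCAAT but 3 copies of GGAGCC.

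All 8 genes had RefSeq windows, 10 in all because SMAD7 has 3 starts. TATAAA was in 3 of these 10 and in 10.7% of 35116 windows of the same length over all genes. These 3 are the printed windows of ID1, ID4 and SMAD7. The windows of ID2, ID3, SMAD9 and BAMBI, genes called with JSK591 in both lines, held no TATAAA. Nor did the SMAD7 windows that are not printed. A link of TATAAA to the response was not tested. GGAGCC was in 7 of 10 against 30.6%, CAGAC in 5 of 10 against 38%, CCAAT in 4 of 10 against 32%, and GGCGCC only in the BAMBI window, 3 times, against 16.4%. The 10 windows ranged from 48.0% to 81.2% G and C, with a median of 58.0% over all windows. Several of the windows not printed above lie largely inside the gene's own exons in the GENCODE annotation. The exons covered all 250 bases for ID3 and for the first SMAD7 start, 202 for ID2, 179 for BAMBI and 34 for SMAD9. Matches in these exonic bases were counted with the rest. The motifs were chosen after the expression values were known, and a match is a description of the letters, not of binding.

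Gene counts summed to between 33188542 and 34914902 per library. Levels are given as CPM, a gene's counts relative to the library's total after TMM scaling. The summed levels of cell type markers below use the total without that scaling. On the same unscaled total 3 counts, the limit that a count of 0 allows, equal at most 0.0904 CPM. The counts of the 8 genes ran from 173 for ID4 to 15041 for ID2. Of 8 adrenergic neuroblastoma markers, 7 were above 3 counts in every library and CHGA was not. Their summed level was 3653 to 3819 CPM in CHLA-20 with DMSO and 2873 to 2973 with JSK591, and 2032 to 2185 in NGP with DMSO and 2079 to 2122 with JSK591. Endothelial markers summed to 0.372 to 1.18 CPM and blood markers to 0.235 to 0.458, with TEK, HBB and HBA1 at 3 counts or fewer in every library. Schwann cell markers summed to 2.35 to 5.34 CPM. Fibroblast markers, 6 of 7 of them above 3 counts in every library, summed to 780 to 787 CPM in CHLA-20 with DMSO and 674 to 680 with JSK591, and to 996 to 1019 and 1106 to 1159 in NGP. Mitochondrial genes took 19.6% to 20.8% of counts in CHLA-20 with DMSO and 21.0% to 21.4% with JSK591, and 19.0% and 20.3% to 21.1% in NGP. The part of these shifts in the results below was not tested. In bulk RNA, fewer cells with a transcript and less of it per cell cannot be told apart.

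The first comparison asks how these genes differed after 6 days of PRMT5 inhibition in each line. All 4 ID genes were lower with JSK591 in both lines, most of all ID1. SMAD9 was modestly lower in both, SMAD7 was much lower in NGP and slightly lower in CHLA-20, BAMBI moved in opposite directions, and SMAD6 was called in neither. In CHLA-20, 6 of the 8 were called lower and 1 higher at an edgeR adjusted p under 0.05, where 22.4% of all genes tested were called lower and 16.9% higher. In NGP 7 were called lower and none higher, beside 19.4% of all genes lower and 16.8% higher. The libraries with JSK591 and with DMSO did not overlap for 7 of the 8 genes in each line, which was so for 66.6% of all genes tested in CHLA-20 and 65.3% in NGP. These contrasts served to choose the genes, so nothing is read from the counts. The median log2 change was -0.27 over the 8 genes in CHLA-20 and -0.66 in NGP, with -0.02 and 0.00 over all genes tested.

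ID1 (ENSG00000125968.8, chr20:31605283-31606515, plus strand) stood at 87.8 and 90.7 CPM in the CHLA-20 libraries with DMSO and at 53.0 and 48.3 with JSK591. In NGP it stood at 209 and 217 CPM with DMSO and at 103 in both libraries with JSK591. The groups did not overlap in either line. ID1 fell by 0.82 ± 0.05 (SE) on the log2 scale in CHLA-20, which is 1.76-fold, and by 1.05 ± 0.04 in NGP, or 2.07-fold. Of all genes tested, 6.27% had a lower log2 change in CHLA-20 and 2.85% in NGP.

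ID2 (ENSG00000115738.9, chr2:8678845-8684453, plus strand) had the highest level of the 4 in every NGP library. Its levels were 96.8 and 101 CPM in CHLA-20 with DMSO and 63.9 and 63.1 with JSK591. In NGP they were 444 and 451 CPM with DMSO and 287 and 292 with JSK591. The log2 change was -0.64 ± 0.04 in CHLA-20 and -0.63 ± 0.04 in NGP, 1.55-fold lower in each, although its DMSO levels differed by 2.18 between the lines on that scale. The exons share 1.7% of their bases with the antisense gene ID2-AS1, which had 30 to 283 counts per library. Whether the counting used strand is not stated.

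ID3 (ENSG00000117318.8, chr1:23557918-23559794, minus strand) changed least of the ID genes in CHLA-20, from 99.3 and 99.5 CPM with DMSO to 90.4 and 88.3 with JSK591. In NGP it went from 136 and 150 CPM to 96.8 and 94.3. With JSK591 the NGP libraries thus lay below the CHLA-20 libraries with DMSO, although with DMSO they lay above them. The log2 changes were -0.15 ± 0.04 and -0.58 ± 0.04. The CHLA-20 call was lost when the trend with gene GC content was removed, at -0.07, and without either second replicate of that line, at -0.13.

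ID4 (ENSG00000172201.11, chr6:19837386-19840684, plus strand) was scarce in CHLA-20, with 6.48 and 8.92 CPM with DMSO and 4.99 and 5.80 with JSK591. In NGP it had 49.7 and 52.6 CPM with DMSO and 30.6 and 29.6 with JSK591. The NGP groups were well apart, while the CHLA-20 groups came close without overlapping. ID4 fell by 0.51 ± 0.11 on the log2 scale in CHLA-20 and by 0.77 ± 0.06 in NGP. The CHLA-20 change rests on the second DMSO library: without it, it was -0.24 and not called.

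**Figure D1:**
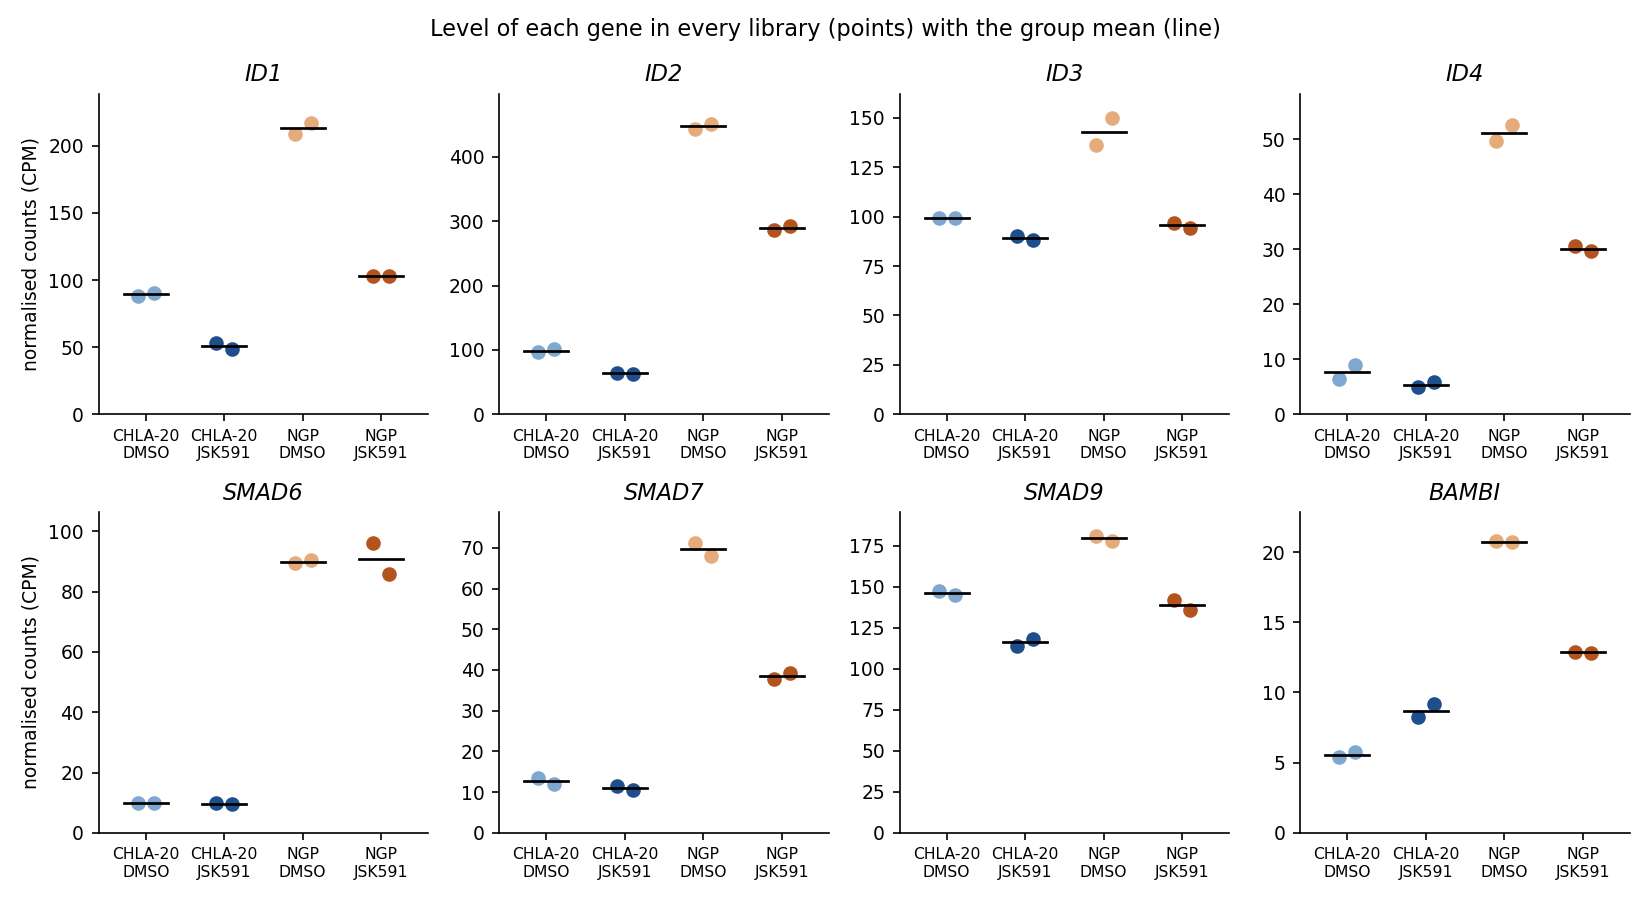
Normalised counts (CPM, linear axes from 0) of the 8 genes in each of the 8 libraries (points) with the mean of the 2 libraries of a group (line), for CHLA-20 and NGP with DMSO or JSK591. ID1 at 103 CPM in both NGP libraries with JSK591 sits below 209 and 217 with DMSO, whereas the SMAD6 groups overlap within each line.

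SMAD9 (ENSG00000120693.13, chr13:36844831-36920765, minus strand), the receptor-regulated SMAD that is also known as SMAD8, was the member whose level varied least. It had 147 and 145 CPM in CHLA-20 with DMSO and 114 and 118 with JSK591. NGP had 181 and 178 CPM with DMSO and 142 and 136 with JSK591. The groups did not overlap within a line, and the log2 changes were -0.33 ± 0.04 in CHLA-20 and -0.37 ± 0.04 in NGP.

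The inhibitory SMADs parted from each other. SMAD7 (ENSG00000101665.9, chr18:48919853-48952052, minus strand) had 71.3 and 68.0 CPM in NGP with DMSO and 37.9 and 39.2 with JSK591, a fall of 0.85 ± 0.05 on the log2 scale. In CHLA-20 its levels were 13.4 and 12.0 CPM with DMSO and 11.5 and 10.4 with JSK591, a change of -0.21 ± 0.08. That CHLA-20 call of SMAD7 was lost under 11 of 18 alternatives, among them DESeq2 at -0.20 and removal of the GC trend at -0.11. It was lost without the first CHLA-20 library with DMSO (-0.13), without the second with JSK591 (-0.14), and without either NGP library with DMSO or the first with JSK591 (-0.18 each).

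SMAD6 (ENSG00000137834.14, chr15:66702228-66782848, plus strand) had 9.79 and 9.75 CPM in CHLA-20 with DMSO and 9.78 and 9.60 with JSK591. In NGP it had 89.5 and 90.4 CPM with DMSO and 96.1 and 85.8 with JSK591. The libraries of the groups overlapped in both lines. The 95% interval of the log2 change was -0.19 to 0.17 in CHLA-20 and -0.08 to 0.11 in NGP.

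BAMBI (ENSG00000095739.10, chr10:28677342-28682939, plus strand) was the one member that was higher with JSK591 in a line. It rose from 5.39 and 5.75 CPM to 8.25 and 9.16 in CHLA-20, a log2 change of 0.64 ± 0.11. In NGP it fell from 20.8 and 20.7 CPM to 12.9 and 12.8, a log2 change of -0.70 ± 0.08. The treated libraries lay above the DMSO libraries in CHLA-20 and below them in NGP, with no overlap in either line.

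**Figure D2:**
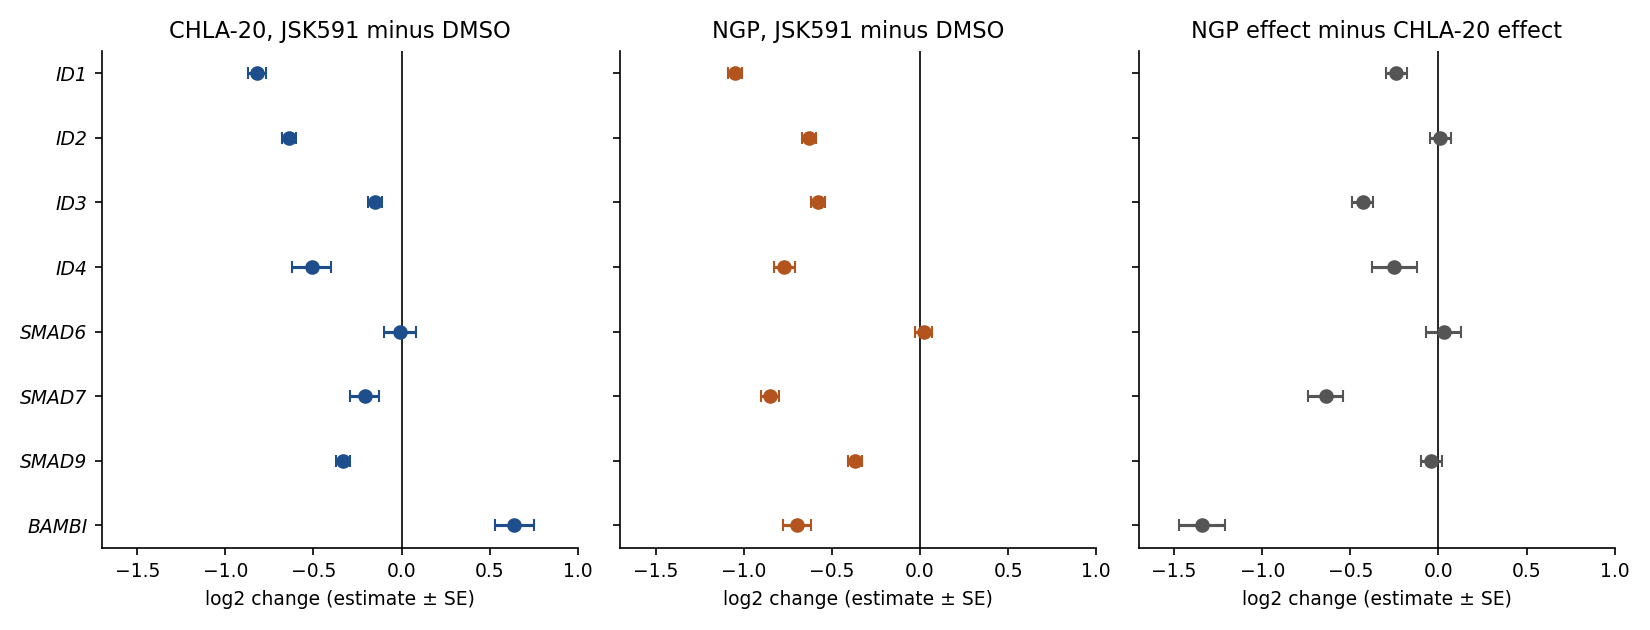
Log2 change with JSK591 in CHLA-20 (left) and NGP (middle), and the NGP change minus the CHLA-20 change (right), for the 8 genes, as the edgeR estimate with its SE (bars). BAMBI lies right of 0 in CHLA-20 at 0.64 and left of 0 in NGP at -0.70, and SMAD6 lies at 0 in both lines.

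Whether the 2 lines differed in their response was read from the difference of the changes, NGP minus CHLA-20. It was called negative for 4 of the 8 genes and positive for none, where 12.5% of all genes tested had a lower and 15.2% a higher difference. BAMBI had the widest gap, -1.34 ± 0.13, followed by SMAD7 with -0.64 ± 0.10, ID3 with -0.43 ± 0.06 and ID1 with -0.24 ± 0.06. The ID1 difference rests on 1 library, since it was -0.17 and not called without the first CHLA-20 library with JSK591. ID2 had a difference of 0.01, with a 95% interval of -0.11 to 0.12, and SMAD9 one of -0.04, with an interval of -0.15 to 0.08. ID4, at -0.25 with an interval of -0.52 to 0.01, was not called, but it was called at -0.55 without the second CHLA-20 library with DMSO. These differences use the same libraries as the changes in each line and add no separate evidence about them.

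The second comparison sets the lines side by side with DMSO. All 8 genes were higher in NGP than in CHLA-20, beside 36.6% of all genes tested that were higher and 38.9% that were lower. SMAD6 differed most, by 3.20 ± 0.06 on the log2 scale, then ID4 by 2.73 ± 0.08, SMAD7 by 2.46 ± 0.06, ID2 by 2.18 ± 0.04, BAMBI by 1.90 ± 0.09 and ID1 by 1.26 ± 0.04. ID3 at 0.52 ± 0.04 and SMAD9 at 0.30 ± 0.04 differed least. For all 8 genes both NGP libraries lay above both CHLA-20 libraries, as they did for 42.5% of all genes tested. The DMSO libraries are the ones used as controls above, so the line difference and the JSK591 changes are not independent.

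Levels of different genes were compared per kilobase of exon (CPM per kb). In CHLA-20 with DMSO the order was ID1 at 72.4, ID3 at 55.3, ID2 at 44.7, SMAD9 at 25.5, ID4 at 3.28, SMAD7 at 2.52, BAMBI at 2.41 and SMAD6 at 1.14 CPM per kb. ID4 and SMAD7, and SMAD7 and BAMBI, differed by no more than the sum of their SDs. With JSK591 ID3 led at 49.7 CPM per kb, ahead of ID1 at 41.1, and BAMBI at 3.76 stood above ID4 at 2.30 and SMAD7 at 2.18, which lay within the sum of their SDs.

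In NGP with DMSO ID2 led at 203 CPM per kb, before ID1 at 173, ID3 at 79.5, SMAD9 at 31.4, ID4 at 21.8, SMAD7 at 13.8, SMAD6 at 10.5 and BAMBI at 8.98. All neighbours in that order differed by more than the sum of their SDs. With JSK591 the order stayed the same but for SMAD6, at 10.6 CPM per kb, which came to stand above SMAD7 at 7.66. With DMSO, ID2 in NGP was above 99.3% of all genes tested per kb of exon and SMAD6 in CHLA-20 above 38.4%.

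The summed level of the 4 ID genes was 290 and 300 CPM in CHLA-20 with DMSO and 212 and 206 with JSK591. In NGP it was 840 and 870 CPM with DMSO and 517 and 518 with JSK591. The mix also differed. In CHLA-20 with DMSO ID1, ID2 and ID3 each gave 30.2% to 34.2% of the ID counts, and with JSK591 ID3 gave 42.6% and 43.0% and ID1 25.0% and 23.5%. In NGP ID2 gave 52.9% and 51.8% with DMSO and 55.5% and 56.2% with JSK591. ID3 thus gave the most ID counts in both CHLA-20 libraries with JSK591, while with DMSO the first place went to ID3 in 1 library and to ID2 in the other.

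**Figure D3:**
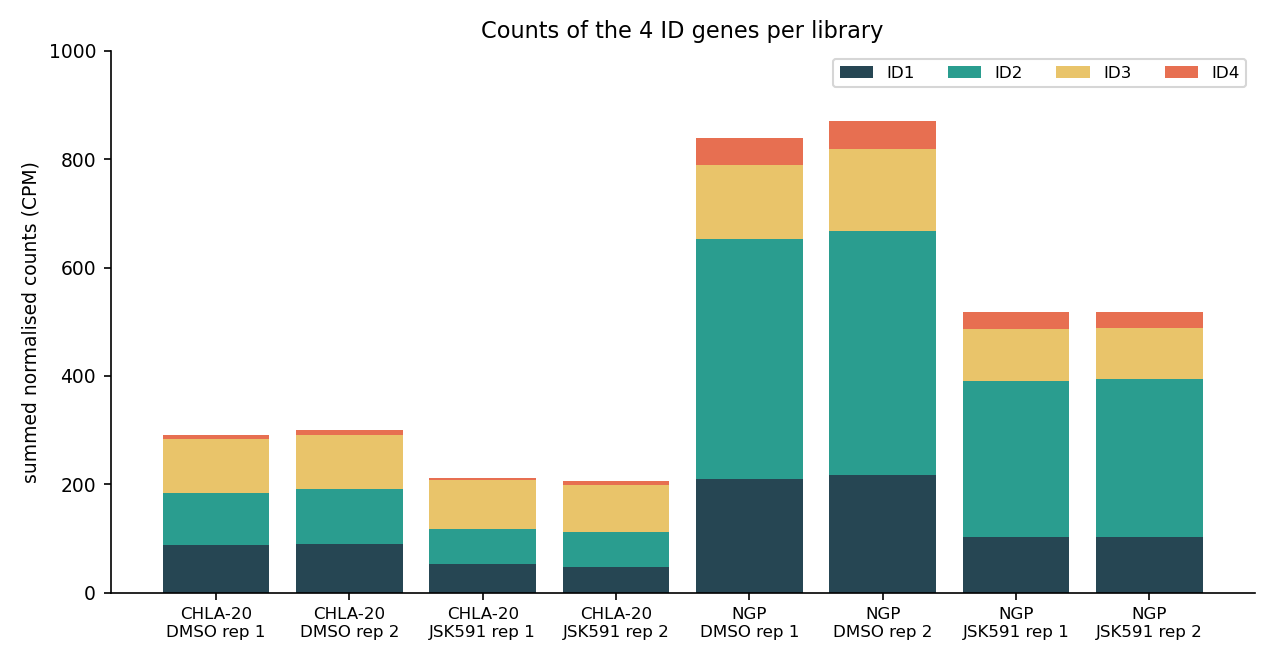
Stacked bars of the CPM of ID1, ID2, ID3 and ID4 in each library (linear axis from 0). The bars reach 290 and 300 CPM in CHLA-20 with DMSO and 840 and 870 in NGP with DMSO, and every bar with JSK591 is shorter than the DMSO bars of its line.

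The rest of the pathway was read from lists of genes by role, described by counts and medians with no test of the lists. They are to be read beside all genes tested, of which 16.9% rose and 22.4% fell in CHLA-20, with a median of -0.02, and 16.8% rose and 19.4% fell in NGP, with a median of 0.00. Among BMP and GDF ligands, 12 of 20 were tested. In CHLA-20 2 rose and 2 fell, with a median log2 change of -0.12. In NGP 3 rose and 2 fell, with a median of -0.19. BMP4, a ligand of the canonical BMP receptors, had 2.07 and 1.84 CPM in CHLA-20 with DMSO and 3.49 and 2.59 with JSK591, and 0.596 and 0.509 in NGP with DMSO and 0.289 and 0.206 with JSK591. Its edgeR log2 change was 0.64 ± 0.20 in CHLA-20 (adjusted p = 0.00836) and -1.15 ± 0.44 in NGP (adjusted p = 0.0332). BAMBI had the same directions, but ID1, ID2, ID4 and SMAD9 fell in both lines. A link of BMP4 to any of these genes was not tested. Neither BMP4 call held with DESeq2. In CHLA-20 it was lost without the first library with JSK591 (0.40) or the second with DMSO (0.58), and in NGP without either library with DMSO (-1.06 and -1.27) or the second with JSK591 (-0.93). BMP3 rose in NGP from 3.46 and 3.48 CPM to 8.58 and 8.41, and GDF15, a stress-induced ligand of the same superfamily, fell in both lines by 0.55 ± 0.05 in CHLA-20 and 0.43 ± 0.06 in NGP. GDF6 was listed at 28.2 to 31.0 CPM in every NGP library and at no more than 1 count in the CHLA-20 libraries.

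Of 17 tested receptors and coreceptors, 7 fell and 1 rose in CHLA-20 and 4 fell and 3 rose in NGP, with medians of -0.12 and -0.04. The NGP counts are close to the shares over all genes. BMPR2, the type II BMP receptor, had log2 changes of -0.22 ± 0.05 (edgeR adjusted p = 0.000121) and -0.13 ± 0.05 (0.0284). The NGP call for BMPR2 was lost with scaling to the total count, at -0.10, and without the second library with DMSO (-0.12) or with JSK591 (-0.08). ACVR1, a type I BMP receptor, fell by 0.28 ± 0.06 in CHLA-20 (edgeR adjusted p = 0.000282) and had a change of -0.04 ± 0.06 in NGP. BMPR1A, another type I receptor, had -0.01 ± 0.06 in CHLA-20 and stood between 34.1 and 44.3 CPM in all libraries. The receptor that rose in CHLA-20, named after its values were seen, was the type I BMP receptor BMPR1B, from 62.1 and 62.2 CPM to 76.7 and 82.4, a log2 change of 0.36 ± 0.05 (edgeR adjusted p = 9.46e-09). In NGP it had 21.1 and 19.9 CPM with DMSO and 22.2 and 22.8 with JSK591, a change of 0.14 ± 0.06 that was not called. RGMA, a BMP coreceptor, rose in NGP from 4.98 and 5.42 CPM to 8.75 and 10.3. ACVRL1, a type I receptor best known from endothelium, fell in CHLA-20 from 6.21 and 6.22 CPM to 4.10 and 4.19.

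SMAD1 and SMAD5, the partners of SMAD9, and the shared SMAD4 moved little. SMAD1 had log2 changes of -0.19 ± 0.08 in CHLA-20 and -0.10 ± 0.09 in NGP, neither called. SMAD5 had 0.10 ± 0.04, not called, and -0.11 ± 0.04 (edgeR adjusted p = 0.0331), a call lost with scaling to the total count and without the first NGP library with DMSO (-0.12) or the second with JSK591 (-0.09). SMAD4 had -0.13 ± 0.05 in CHLA-20 (edgeR adjusted p = 0.0265) and 0.01 ± 0.05 in NGP. The SMAD4 call was lost with DESeq2 and without any of the 4 libraries with DMSO or the first with JSK591 of either line (-0.09 to -0.12). SMAD2, which serves the TGF-beta branch, fell by 0.25 ± 0.04 and 0.15 ± 0.04, the second call being lost without the second NGP library with JSK591 (-0.13). Of the 5 SMADs outside the 8 genes, 3 fell in CHLA-20 and 2 fell and 1 rose in NGP.

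Among 23 regulators and cofactors of SMADs, 8 fell and 3 rose in CHLA-20 and 7 fell and 5 rose in NGP. NEDD4L, a ubiquitin ligase that marks activated SMADs for destruction, fell from 14.1 and 14.0 CPM to 7.13 and 6.78 in CHLA-20 and stood at 106 and 109 with DMSO and 115 and 104 with JSK591 in NGP. SKIL, a repressor of SMAD-driven transcription, fell by 0.48 ± 0.05 in NGP and had 0.14 ± 0.06 in CHLA-20, not called. TGIF1, a corepressor of SMADs, rose by 0.73 ± 0.11 in NGP. Secreted BMP antagonists had 4 lower and 1 higher of 14 tested in CHLA-20 and 1 lower and 3 higher in NGP. The lower antagonist in NGP was DAND5, with 3 and 2 counts in the libraries with DMSO and 0 with JSK591, too few to give a fold. Its call was lost with DESeq2. Of the 4 lower in CHLA-20, 1 had only 2 and 3 counts with DMSO and 0 with JSK591.

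Other genes known to respond to BMP, chosen from general knowledge, showed 6 lower and 2 higher of 15 in CHLA-20 and 3 lower and 1 higher in NGP, with medians of -0.26 and -0.20. With DMSO, 7 of these 15 were higher in NGP than in CHLA-20 and 8 were lower, with a median of -0.18. Over all genes tested 36.6% were higher and 38.9% lower in that comparison. MSX2, a homeobox gene induced by BMP in many tissues, fell by 0.92 ± 0.08 in NGP (edgeR adjusted p = 3.2e-15), from 26.8 and 28.9 CPM to 14.1 and 15.4. In CHLA-20 MSX2 was at 1.66 and 1.99 CPM with DMSO and 1.04 and 1.16 with JSK591, and its call there was lost without the second CHLA-20 library with DMSO, at -0.57, or the first with JSK591, at -0.65. TBX3, a T-box repressor, fell by 0.97 ± 0.04 in NGP and by 0.26 ± 0.04 in CHLA-20. DLX3, a homeobox gene, fell by 0.91 ± 0.07 in CHLA-20. TGF-beta-responsive genes went both ways, with 3 higher and 3 lower of 17 in CHLA-20 and 4 higher and 5 lower in NGP. Among them JUNB, a component of AP-1, went from 112 and 128 CPM to 75.1 and 78.7 in NGP and had 40.7 to 45.1 CPM in all CHLA-20 libraries. The exons of JUNB share 14.2% of their bases with HOOK2. The list of TGF-beta, activin and nodal ligands had 1 higher and 2 lower of 10 in CHLA-20 and 3 higher and 2 lower in NGP. TGFB1 had a log2 change of -1.10 ± 0.21 in CHLA-20, from 2.54 and 2.31 CPM with DMSO. In NGP it had -0.27 ± 0.10, a call lost with DESeq2. INHBE, an activin subunit, had -2.17 ± 0.27 in CHLA-20, from 2.01 and 1.84 CPM to 0.346 and 0.505. In NGP INHBE fell by 0.54 ± 0.07, from 37.6 and 37.2 CPM to 23.4 and 28.2.

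The E proteins, which ID proteins bind, did not move as one. TCF12 fell in both lines, by 0.23 ± 0.04 in CHLA-20 (edgeR adjusted p = 6.78e-07) and by 0.41 ± 0.04 in NGP (7.24e-14). TCF4 rose in both, by 0.14 ± 0.04 and 0.26 ± 0.04, and was 2.66 ± 0.04 lower on the log2 scale in NGP than in CHLA-20 with DMSO. TCF3 had -0.15 ± 0.04 in CHLA-20, a call lost when the GC trend was removed (-0.02), and 0.17 ± 0.04 in NGP.

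Among 15 tested tissue-specific bHLH factors, 2 rose and 2 fell in CHLA-20 and 5 rose and 3 fell in NGP. HAND2, a core factor of sympathetic neuroblasts, had 766 and 806 CPM in CHLA-20 with DMSO and 546 and 529 with JSK591, and in NGP 638 and 688 with DMSO and 836 and 838 with JSK591. TWIST1, a neural crest and mesenchymal factor, had 703 and 728 CPM in CHLA-20 with DMSO and 464 and 472 with JSK591, and 118 to 127 CPM in all NGP libraries. NEUROG2, a proneural factor, had no counts in CHLA-20 and went from 6.35 and 6.59 CPM to 13.8 and 16.0 in NGP. NHLH2 rose in both lines, by 0.58 ± 0.09 and 0.36 ± 0.08. The exons of HAND2 share 24.1% of their bases with HAND2-AS1. HES and HEY repressors, another bHLH group, had 6 lower and 1 higher of 9 in CHLA-20 and 1 of each in NGP. The higher one in CHLA-20 was HES1, at 0.829 and 0.978 CPM with DMSO and 1.73 and 1.93 with JSK591. The log2 change of HES7 in CHLA-20 was -2.65 ± 0.48 from below 1 CPM.

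**Figure D4:**
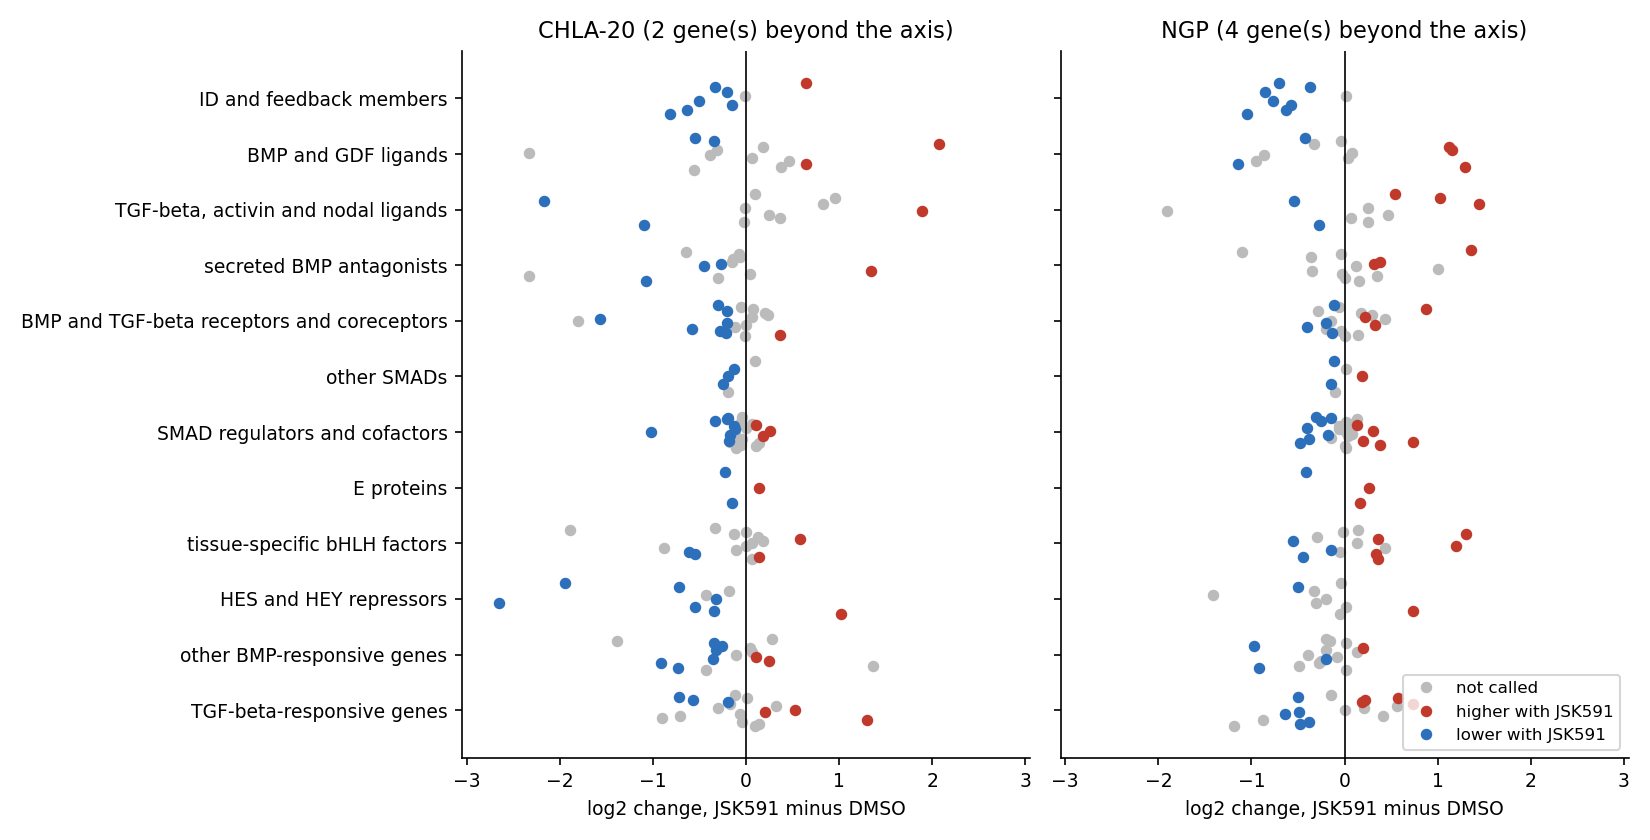
Log2 change with JSK591 of each tested gene of the pathway lists, by role, in CHLA-20 (left) and NGP (right). Points are red where called higher, blue where called lower and grey where not called at an edgeR adjusted p under 0.05, and the title of each panel says how many genes lie beyond the axis. In the top row 6 of the 8 genes are blue and BAMBI is red in CHLA-20, and 7 are blue in NGP.

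The genes whose pattern over the 8 libraries was most like that of a member were found by the root mean square difference of log2 CPM, each centred on its own mean, over 14472 genes. The 8 libraries share 4 groups, so the likeness is mostly one of group means. For ID1 the closest were IER5L, at 0.074, and SNAI1, at 0.101. For ID2 it was FN1, at 0.080, and for ID3 DUSP26 and IER2, both at 0.060. ID4 was closest to MITF at 0.113, SMAD6 to ANAPC5 at 0.074, SMAD7 to MED12L at 0.134, SMAD9 to FBXL12 at 0.024 and BAMBI to ZNF57 at 0.127. Among the 8 genes themselves, ID3 and SMAD9 were the nearest pair, at 0.109, then ID2 and SMAD7 at 0.184.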

How the data were processed

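The authors deposited unnormalised gene counts in a file for each library. The submitters' processing notes name STAR, HTSeq and DESeq2 and the build GRCh38 (hg38). Tool versions, annotation and strandedness are not given in the sources used here. All 58721 gene IDs were found in GENCODE 29, the source of symbols, exon lengths and coordinates. Reads outside genes (5.15% to 6.86%), ambiguous reads (6.77% to 7.18%) and multiple alignments (19.2% to 22.0%) stayed out of library sizes.

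Here counts were filtered with filterByExpr over the 4 groups, scaled by TMM and fitted in 1 quasi-likelihood model of 4 groups with edgeR 4.0.16 (limma 3.58.1, R 4.3.3), with 4 residual degrees of freedom. P-values were Benjamini-Hochberg adjusted over 19395 genes, with 0.05 as the threshold. DESeq2 1.42.0 was an alternative. The fit was tested on simulated data. Counts of the replicates differed beyond sampling noise in each group (chi-square over its degrees of freedom 2.16 to 3.37). CPM use TMM library sizes, except the summed cell type markers and the 3-count limit, which use the unscaled total of gene counts. The 95% intervals of log2 changes come from this fit. Floors reflect counting alone, and reads without molecular identifiers are not separate molecules.

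The members, gene lists and promoter motifs were chosen with earlier results of these data known. Named are the 8 members, SMAD1, SMAD4, SMAD5, BMPR1A, BMPR2, ACVR1 and the E proteins, up to 3 genes per list and contrast with the largest called change (at least 1 CPM on average, at least 0.5 in log2 for the treatment), and the genes most like each member. A gene named for 1 contrast may be described in the others. Some list genes that the rule names are not reported here. The labels do not say whether replicate numbers pair libraries. Correlations of deviations between same-numbered libraries were -0.027 to 0.012. The deviations include counting noise, so these values cannot tell whether such libraries shared a culture or day.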

Additional observations from a re-analysis of the deposited data

Results flagged for a closer look

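For the genes below the JSK591 change differed between the lines by the edgeR test of the difference itself (NGP change minus CHLA-20 change, on the log2 scale). They are limited to the members, to the list genes picked by the naming rule and to BMPR1B. Over all pathway lists the difference was called for 54 genes, 34 of them higher and 20 lower. Over all genes tested it was called higher for 15.2% and lower for 12.5%, and nothing is read from the list count. Among the 8 members these were ID1 at -0.24, ID3 at -0.43, SMAD7 at -0.64 and BAMBI at -1.34.

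Among ligands, antagonists and receptors they were BMP4 at -1.79, TGFB1 at 0.84, INHBE at 1.63, AMH at 0.44, CHRD at 1.24, NBL1 at 0.53, RGMA at 0.81, BMPR1B at -0.22 and ACVR1 at 0.24. Among SMADs and their regulators they were SMAD3 at 0.39, SMAD5 at -0.21, SKIL at -0.62, NEDD4L at 1.04 and TGIF1 at 0.89. Among target genes they were TBX3 at -0.71, DLX3 at 0.64, JUNB at -0.57 and COL1A1 at 0.79.

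Among helix-loop-helix genes they were TCF3 at 0.33, TCF12 at -0.17, HAND2 at 0.89, TWIST1 at 0.56, TCF15 at 1.42, NHLH1 at -0.73, HES1 at -1.07, HES4 at 1.08 and HES7 at 2.34.

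Some of these calls depended on single libraries or on the processing. Those of ACVR1 and CHRD were lost without any 1 of the 8 libraries, with differences of 0.13 to 0.27 and 1.07 to 1.43. That of AMH was lost without the second CHLA-20 library with DMSO (0.36) or with JSK591 (0.38), the first NGP library with DMSO (0.27) or the second with JSK591 (0.34), and stood at 0.05 with the GC trend removed. That of HES1 was lost without the first CHLA-20 library with DMSO (-0.96) or the second library with JSK591 of CHLA-20 (-0.99) or NGP (-0.93). That of NHLH1 was lost without the second CHLA-20 library with DMSO (-0.47), either CHLA-20 library with JSK591 (-0.82 and -0.64) or the second NGP library with DMSO (-0.72) or with JSK591 (-0.73). TCF12 (-0.17) and TGFB1 (0.69) lost it without the second CHLA-20 library with JSK591, and ID1 (-0.17) without the first. SMAD3 (0.27) lost it without the first NGP library with DMSO. BMPR1B lost it without the first CHLA-20 library with DMSO (-0.22), the second with JSK591 (-0.17), the first NGP library with DMSO (-0.23) or the second with JSK591 (-0.24). With the GC trend removed TCF12 was at -0.11, BMPR1B at -0.14 and NBL1 at 0.26, none of them called. DESeq2 did not call AMH (0.41), CHRD (1.23), BMPR1B (-0.24), ACVR1 (0.21) or HES1 (-1.10).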

How the results depend on the processing

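The 7 members called in NGP and the 8 called between the lines with DMSO stayed 7 and 8 under every alternative run, while the 7 called in CHLA-20 ranged from 5 to 7 and the 4 called in the difference from 3 to 5. With the replicate block the counts were 7, 7, 4 and 8, and those over all genes 7644 in CHLA-20, 7013 in NGP, 5397 in the difference and 14615 between the lines, against 7639, 7021, 5368 and 14637. Leaving out 1 library at a time gave 5920 to 7708, 5556 to 7256, 4154 to 4882 and 13948 to 14947. DESeq2 gave 5674, 5202, 3864 and 13356. Genes of the pathway lists called were 59, 57, 54 and 114, beside 7639, 7021, 5368 and 14637 of all 19395 genes tested. With DESeq2 the list counts were 41, 46, 39 and 112. No total moved by over 1.5 times, but some counts in 1 direction did. With DESeq2 the genes called higher went from 3266 to 2078 in NGP and from 2950 to 1851 in the difference, and list genes called higher in CHLA-20 from 17 to 11. With at least 10 counts in every library, list genes higher in NGP than in CHLA-20 with DMSO went from 58 to 38. Without the second NGP library with JSK591, list genes with a lower difference went from 20 to 13. With the GC trend removed, the difference had 2397 higher and 2958 lower genes in place of 2950 and 2418. Of 560 alternative values for members, 542 kept the side of the threshold, 17 lost the call and 1 gained it. No called member value changed direction. Some uncalled values near 0 did, such as the SMAD6 change in NGP, which ran from -0.09 to 0.10. The HAND2 level between the lines turned from -0.25 to 0.01 with the GC trend removed, with or without the replicate block. The cause of these changes was not tested. Counts under about 3 per library limit BMP3, DAND5, GDF6 and NEUROG2 in 1 line.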
